A study of Drosophila melanogaster with 24 samples.

Results

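The locus of dachsous (ds) on chromosome arm 2L was examined as the stretch from 630000 to 725000 in the coordinates of the peak lists, and every peak of 7 lists that overlapped it was taken. The lists held 337 such peaks, which merged into 87 regions where peaks overlapped by at least 1 bp, out of 54832 merged regions in the whole series and 9938 on 2L. Regions are numbered 1 to 87 along the arm and had a median length of 424 bp. The lists other than ChIP-seq come from FAIRE-seq (formaldehyde-assisted isolation of regulatory elements), which recovers DNA free of crosslinked protein and so marks open chromatin. E93 mutant female wings (E93-4/Df(3R)93FX2, an E93 allele over a deficiency) were assayed as third-instar wing discs (L3) and as pupal wings, 24 h or 44 h after puparium formation (APF), with 2 replicates at each stage. Wild-type female wings (w1118/y,w, hs-FLP; + ; +) were assayed at the same stages, with 3 replicates each. ChIP-seq was made with anti-GFP antibody from 24 h APF wings of both sexes with the genotype yw/+; + ; Mi{MIC}Eip93F/+ (E93-GFSTF, a GFP-tagged E93 protein trap on 1 chromosome), in 2 replicates. A genomic DNA control came from whole adult OregonR virgin females.

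Dachsous is a very large atypical cadherin that binds the cadherin Fat on neighbouring cells. Fat and Dachsous orient planar polarity across the wing and feed into growth control by the Hippo pathway, and the Golgi kinase Four-jointed tunes their binding. E93 (Eip93F) is an ecdysone-induced transcription factor of metamorphosis, and the larval wing disc proliferates while the pupal wing leaves the cell cycle and differentiates.

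Replicates were pooled before peaks were called, so each condition had 1 list, the spread between replicates is unknown and no test between conditions was made. Values are ranks within a list by pileup, the coverage at the summit of a peak, given as a place in the list or as a top percent (the place divided by the length of the list). Pileups were scaled differently among lists and were not compared between them. Intervals beside shares are exact 95% binomial intervals, which cover counting error only. Recovered depth over the stages L3, 24 h and 44 h was 5.44, 4.68 and 2.79 M reads in the E93 mutant, against 9.57, 17.5 and 14.5 in wild type, and 20.6 in ChIP-seq. A missing peak says only that none was called at that depth, and the part of depth and replicate number in the differences between genotypes was not tested. Peak names in the mutant L3 list give 0 h APF where the labels give L3, so the exact stage of that list is in doubt. The names of the wild-type L3 peaks mention a subset of top peaks, although with 39525 peaks this list was the longest.

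In the gene table, which is on Release 6, ds was the only protein-coding gene that reached into the window, beside the noncoding genes lncRNA:CR44988 and lncRNA:CR46260. The peak lists are on dm3, and arm 2L was taken as unshifted between the releases. Ends of protein-coding genes on 2L had a wild-type 24 h summit within 250 bp in 1120 of 5235 cases (21.4%) with no shift, and in at most 697 (13.3%) at any other of the 81 shifts tried. With that placement 64 regions overlapped ds, 12 lay below it (regions 1 to 12) and 11 above it (regions 77 to 87). Region 76 lay across the high-coordinate end of the gene and no region across the low-coordinate end.

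The window was denser in peaks than the arm. Over the stages L3, 24 h and 44 h the E93 mutant lists had 58, 48 and 39 peaks in the window, where the mean of 2L gives 21.1, 19.3 and 15.9 for this length. The wild-type lists had 74, 54 and 40, where the mean of 2L gives 30.1, 21.6 and 20.0. The ChIP-seq list had 24 peaks against an arm mean of 6.14, or 3.91 times as many, and the FAIRE-seq lists stood between 2.00 and 2.74 times their arm means. Peaks covered 23.0%, 19.2% and 13.2% of the window in the mutant stages, against 28.1%, 21.9% and 16.2% in wild type. The median top percent of window peaks was 43.6, 39.2 and 56.5 in the mutant lists, 41.4, 56.8 and 56.3 in the wild-type lists, and 51.6 in the ChIP-seq list.

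**Figure D1:**
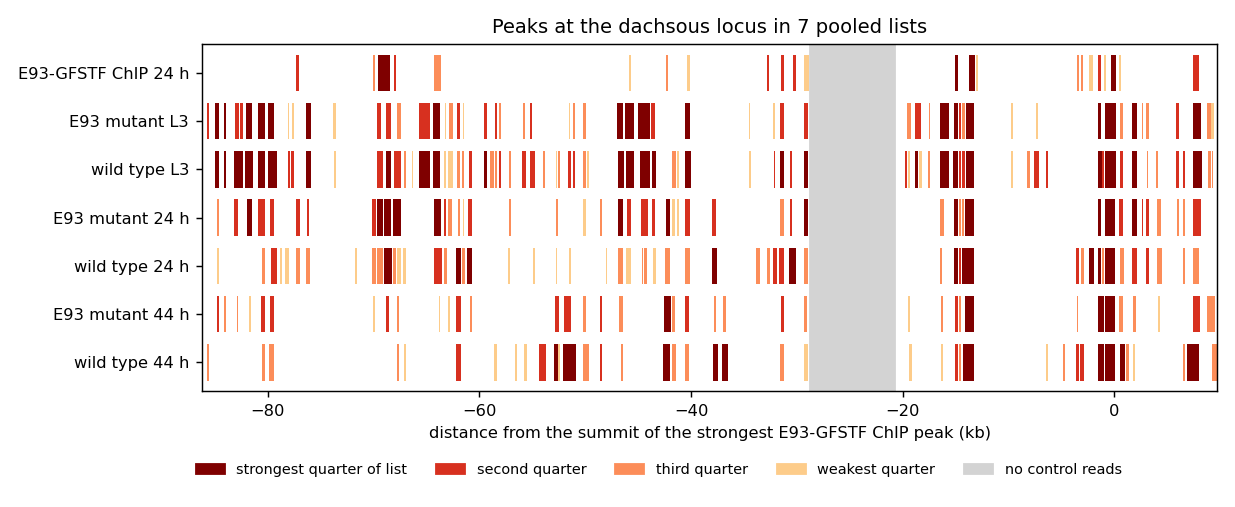
Peaks of the 7 lists across the window, 1 row per list, by distance in kb from the summit of the strongest E93-GFSTF ChIP-seq peak and coloured by strength within their own list by pileup. The grey band marks the 8 bins of 1 kb without a control read, where no list has a peak. At the left edge most of the darkest peaks are those of L3, beside the mutant 24 h peak of region 5.

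A stretch of 9162 bp within ds, from 686851 to 696012, held no peak in any list. It held 8 control reads, or 0.873 per kb (exact Poisson interval 0.377 to 1.72), where the rest of the window averaged 83.2 per kb. FAIRE-seq reads were not examined, and the lack of peaks there was not read as closed chromatin. Outside that stretch the control had 77.0 reads per kb in merged regions and 88.7 between them. The density of single regions ran between 37.2 and 123 reads per kb. Its exact Poisson interval lay above the mean of 83.2 in 1 of 87 regions, region 27, and below it in 9, which included region 38, described below, at 56.5 reads per kb (43.9 to 71.7). The part of control density in the ranks was not tested.

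**Figure D2:**
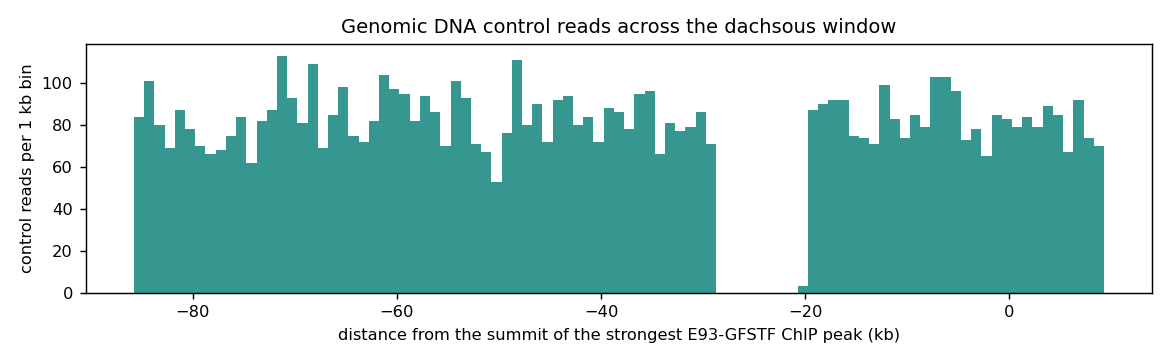
Genomic DNA control reads in bins of 1 kb across the window, by distance in kb from the summit of the strongest E93-GFSTF ChIP-seq peak. The median bin holds 81 reads, and 8 neighbouring bins hold none.

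The regions that held the best places over all wild-type stages were 76, 65 and 75, all at the high-coordinate side of ds. Region 76 (714804 to 715896), across the end of ds, ranked first of the window in 5 of the 7 lists. In stage order it placed 1033 of 28216, 1310 of 26239 and 1111 of 22786 in the E93 mutant, and 945 of 39525, 1548 of 29731 and 1002 of 28684 in wild type. Its ChIP-seq peak placed 24 of 8477. It was thus in the top 5.21% of every list. Region 65 (701330 to 702551), within ds, placed 3650, 4101 and 4273 in the mutant lists and 2076, 989 and 1744 in the wild-type lists, so it placed lower in the mutant at each stage. Its ChIP-seq peak placed 67 of 8477. Region 75 (714177 to 714772) placed 4658, 4545 and 1499 in the mutant lists and 3222, 6818 and 358 in the wild-type lists, and in both genotypes its best place was at 44 h. Its 44 h peak was the strongest of the window in wild type.

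The stages differed in which regions held a peak. In the mutant, 55 of 87 regions had an L3 peak (63.2%), 47 a 24 h peak (54.0%) and 39 a 44 h peak (44.8%), where 47.3%, 42.8% and 36.7% of all merged regions did. In wild type, 67 had an L3 peak (77.0%), 51 a 24 h peak (58.6%) and 39 a 44 h peak (44.8%), where 67.8%, 49.8% and 48.7% of all did. Peaks in all 7 lists were found in 10 regions (11.5%, interval 5.65% to 20.1%), where 8.51% of all regions had them. The 6 FAIRE-seq lists shared 17 regions (19.5%), near the 20.3% of all, and the 3 wild-type lists shared 21 (24.1%), near the 26.9% of all. Another 10 regions (11.5%, interval 5.65% to 20.1%) had a peak at L3 in both genotypes and in no other list, where 5.62% of all did.

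Of the 85 regions with a wild-type peak, 20 had it at L3 only, 8 at 24 h only and 6 at 44 h only (23.5%, 9.41% and 7.06%), where 30.3%, 7.73% and 10.7% of all such regions did. A pupal peak without one at L3 was found in 18 (21.2%), where 26.5% of all had it. Wild-type L3 regions had a 24 h peak in 39 of 67 cases (58.2%) and a 44 h peak in 29 (43.3%), where 52.1% and 46.4% of all did. Regions with a wild-type 24 h peak had one at L3 in 39 of 51 cases (76.5%), where 70.8% of all did. They had one at 44 h in 25 of 51 cases (49.0%, interval 34.8% to 63.4%), below the 69.0% of all. Of the wild-type 44 h regions, 29 of 39 had an L3 peak (74.4%) and 25 a 24 h peak (64.1%), where 64.5% and 70.5% of all did. In the mutant, L3 regions had a 24 h peak in 34 of 55 cases (61.8%) and a 44 h peak in 29 (52.7%), where 68.0% and 57.3% of all did. Mutant 24 h regions had a 44 h peak in 32 of 47 cases (68.1%), where 67.2% of all did.

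Among the 12 regions below ds, the median place was best at L3 in both genotypes, although regions 8 and 11 had no L3 peak. In the mutant, 10 of them had an L3 peak with a median top percent of 22.2, 7 a 24 h peak with a median of 34.5 and 6 a 44 h peak with a median of 52.5. In wild type, 9 had an L3 peak with a median of 15.3, 7 a 24 h peak with a median of 64.8 and 3 a 44 h peak with a median of 57.6. Region 5 (633595 to 634317) was the strongest region found in wild type at L3 only. In stage order it placed 1568 of 28216, 3779 of 26239 and 19968 of 22786 in the mutant. In wild type it placed 1552 of 39525 at L3 and had no peak at 24 h or 44 h. Its mutant 24 h peak was thus in the top 14.4%, at a stage where the deeper wild-type list had none. Region 4 (632547 to 633393) had peaks in the same lists, in the top 33.4%, 41.0% and 59.1% of the mutant lists and the top 22.4% of the wild-type L3 list. Region 2 (630765 to 631151) was in the top 21.8%, 58.4% and 45.9% of the mutant lists. In wild type it was in the top 14.2% at L3 and 92.8% at 24 h, and not called at 44 h.

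Other regions had their best place in the pupal wing. Region 57 (685032 to 685688), within ds, was in the top 26.9% of the mutant 24 h list, its only mutant peak. In wild type it was in the top 47.4% at L3 and 4.88% at 24 h, with none called at 44 h, and ranked by fold enrichment its wild-type 24 h peak was in the top 22.5%. Region 74 (713346 to 713817) was the strongest found in wild type at 24 h only, in the top 22.9%, and had no mutant peak. Region 51 (678673 to 679235) was the strongest found in wild type at 44 h only, in the top 65.2% at 44 h in the mutant and 21.0% in wild type.

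Regions 25, 38 and 85 were picked out after their values were seen, because their places differed widely between stages. Region 38 (663657 to 664859) was in the top 68.2% at L3 and 30.9% at 44 h in the mutant, with none called at 24 h, and in the top 39.8%, 86.0% and 3.49% of the wild-type lists. Region 85 (722625 to 723998), above ds, was in the top 19.3%, 35.5% and 29.1% in the mutant and 12.6%, 59.4% and 4.03% in wild type. Both had their best wild-type place at 44 h. Region 25 (653529 to 654022) was in the top 35.7%, 55.8% and 36.0% in the mutant and 52.6%, 9.86% and 28.7% in wild type, with its best wild-type place at 24 h.

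**Figure D3:**
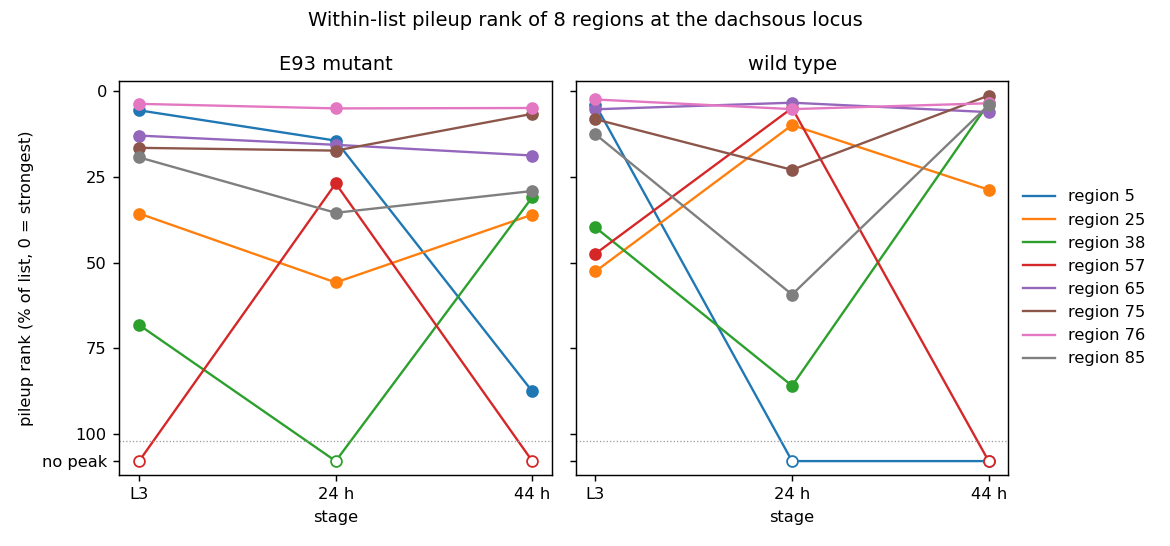
Within-list pileup rank (percent of the list, strongest at the top) of 8 regions at L3, 24 h and 44 h in E93 mutant wings (left) and wild-type wings (right), with open circles where no peak was called. Region 76 stays in the top 5.21% throughout, while regions 5, 38, 57 and 85 take different courses.

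Rank correlations are given as descriptions over neighbouring regions of lists that differ in depth. Across the 34 regions with peaks in the mutant 24 h, wild-type 24 h and wild-type L3 lists, Spearman's rho of the mutant 24 h ranks was 0.53 with wild-type 24 h and 0.48 with wild-type L3, and rho between wild-type 24 h and L3 was 0.16. Over all 16064 such regions the values were 0.74, 0.78 and 0.60. Across the 23 regions with peaks in the mutant 44 h, wild-type 44 h and wild-type L3 lists, rho of the mutant 44 h ranks was 0.75 with wild-type 44 h and 0.47 with wild-type L3, against 0.73 and 0.67 over all 13797.

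The genotypes were then compared stage by stage, to ask where open chromatin at the locus differed in E93 mutant wings. At L3, 53 of 55 mutant regions had a wild-type peak (96.4%, interval 87.5% to 99.6%), where 87.5% of all mutant regions did. Of the 67 wild-type L3 regions, 53 had a mutant peak (79.1%, interval 67.4% to 88.1%), above the 61.0% of all. These shares are not matched for strength within the list. The wild-type L3 list was therefore cut by pileup into 4 equal parts, strongest first. In these, 26 of 26, 14 of 18, 8 of 16 and 5 of 7 regions had a mutant peak. Of all regions, 99.6%, 77.4%, 39.2% and 22.3% did. The interval lay above the share of all only in the weakest part (29.0% to 96.3%). The 14 wild-type L3 regions without a mutant peak had a median top percent of 62.5 in wild type, against 33.5 for the 53 with one. The best-ranked of them, regions 84 (722233 to 722439) and 70 (709294 to 709454), were in the top 34.6% and 39.8%. The 2 mutant L3 peaks without a wild-type L3 peak, in regions 1 (630018 to 630178) and 80, were in the top 39.5% and 68.2%. Ranks were better in the mutant in 8 of 53 shared regions (15.1%), near the 17.1% of all.

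At 24 h, 38 of 47 mutant regions had a wild-type peak (80.9%), where 76.7% of all did, and 38 of 51 wild-type regions had a mutant peak (74.5%, interval 60.4% to 85.7%), where 65.9% of all did. The 13 wild-type regions without one had a median top percent of 76.2, against 52.7 for those with one. Regions 74 and 72 (712160 to 712447) were the best-ranked of them, in the top 22.9% and 43.8%. Both had an E93-GFSTF ChIP-seq peak, in the top 83.5% and 58.5% of the ChIP-seq list. Of the 9 mutant regions without a wild-type 24 h peak, 7 had a wild-type L3 peak, and regions 5 and 4 were the strongest. In the whole series 18006 of 23467 mutant 24 h regions had a wild-type 24 h peak, and 3615 of the rest had a wild-type L3 peak. Regions with a wild-type L3 peak and no wild-type 24 h peak had a mutant 24 h peak in 7 of 28 cases, where 20.3% of all did. Those with both wild-type peaks had one in 34 of 39 cases (87.2%), near the 83.0% of all.

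At the 38 regions shared at 24 h, places were mostly better in the mutant list. The mutant rank was better in 29 of 38 (76.3%, interval 59.8% to 88.6%), above the 49.5% of all 18006 shared regions. The median difference, mutant minus wild type, was -13.1 percentage points, against 0.115 over all. The largest difference was in region 58 (686387 to 686850), chosen after its value was seen, which was in the top 18.5% in the mutant and 70.2% in wild type. Region 25 had the largest difference the other way, with 55.8% in the mutant and 9.86% in wild type.

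At 44 h, 28 of 39 mutant regions had a wild-type peak (71.8%), where 81.8% of all did, and 28 of 39 wild-type regions had a mutant peak (71.8%), where 61.6% of all did. The 11 wild-type regions without one were led by regions 73 (712552 to 712871) and 36 (661403 to 662010), in the top 40.6% and 45.9%. Of the 11 mutant regions without a wild-type 44 h peak, 10 had a wild-type L3 peak, led by regions 2 and 17 in the top 45.9% and 49.5% of the mutant list. Those 10 were among 38 regions with a wild-type peak at L3 and none at 44 h (26.3%, interval 13.4% to 43.1%), where 12.8% of all such regions had a mutant 44 h peak. In the whole series 16464 of 20139 mutant 44 h regions had a wild-type 44 h peak, and 2539 of the rest had a wild-type L3 peak. With only peaks of −log10 q of at least 10, such regions numbered 2. Of the 10, only region 2 kept its mutant 44 h peak (−log10 q 13.2). The other was region 79, whose wild-type 44 h peak (−log10 q 5.31) was cut. The mutant rank was better in 10 of 28 shared regions (35.7%), where 42.1% of all were.

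**Figure D4:**
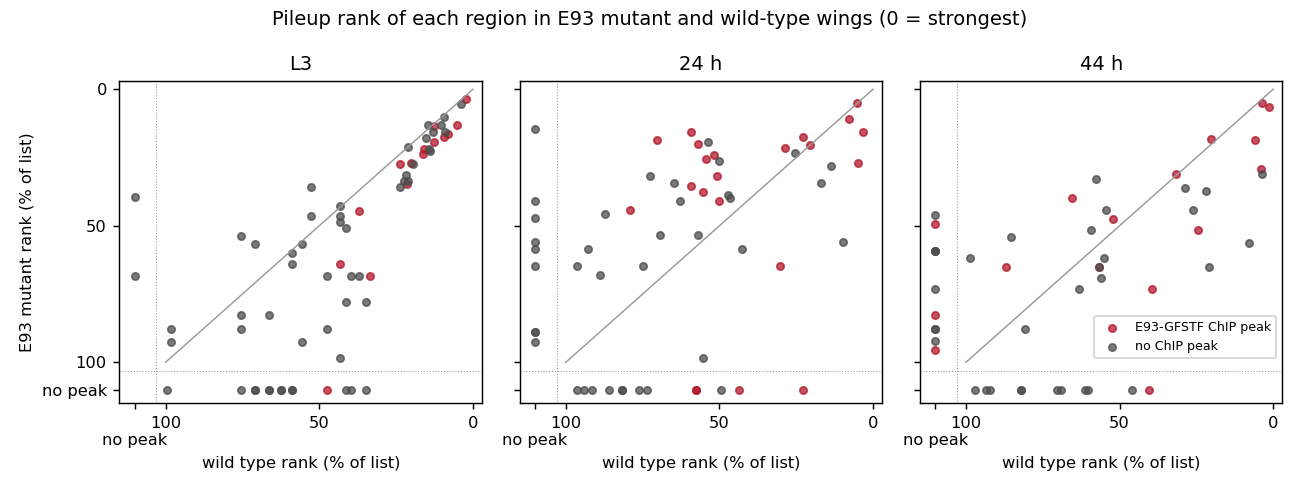
Pileup rank (percent of the list) of each region in E93 mutant wings (vertical) against wild-type wings (horizontal) at L3, 24 h and 44 h, with stronger peaks towards the upper right, a diagonal of equal ranks and regions without a peak set beyond the dotted lines. Points above the diagonal rank better in the mutant, as 29 of 38 shared regions do at 24 h, and red points have an E93-GFSTF ChIP-seq peak.

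Region 80 (718340 to 718509) alone had mutant peaks and no wild-type peak at any stage, 1 of 87 (1.15%) where 7.56% of all merged regions did. It was in the top 68.2% at L3 and 47.3% at 24 h in the mutant. The reverse, a wild-type peak and no mutant peak at any stage, was found in 16 regions (18.4%, interval 10.9% to 28.1%), below the 36.2% of all. These shares were not matched for strength within the list.

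E93-GFSTF ChIP-seq peaks were more frequent at the locus than in the series. They were found in 23 of 87 regions (26.4%, interval 17.6% to 37.0%), where 13.6% of all merged regions had one. In regions with a wild-type 24 h peak they were found in 22 of 51 (43.1%, interval 29.3% to 57.8%), where 26.1% of all had one. Region 66 was the only one with a ChIP-seq peak and no FAIRE-seq peak. Of the 12 regions with a wild-type peak at 24 h and none at L3, 7 had a ChIP-seq peak (58.3%, interval 27.7% to 84.8%), against 13.4% of all such regions. Of the 39 with both a 24 h and an L3 peak in wild type, 15 had one (38.5%), where 31.3% of all did. Of the 23 ChIP-seq regions, 18 had a mutant 24 h peak (78.3%), 22 a wild-type 24 h peak (95.7%), 15 a wild-type L3 peak (65.2%) and 13 a wild-type 44 h peak (56.5%), where 87.5%, 95.9%, 82.8% and 78.4% of all did. With only peaks of −log10 q of at least 10, 7 of the 63 merged regions left in the window had a ChIP-seq peak. At that limit 3 regions had ChIP-seq and wild-type 24 h peaks and no wild-type L3 peak. Of the 7 above, only region 11 kept its ChIP-seq peak (−log10 q 10.9). Regions 16 and 57 entered the 3 because their wild-type L3 peaks (−log10 q 6.35 and 5.86) were cut. The shares of all regions were not computed at that limit, so the higher frequency is not shown to hold there. No anti-GFP ChIP-seq of wings without the tagged protein was used here.

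**Figure D5:**
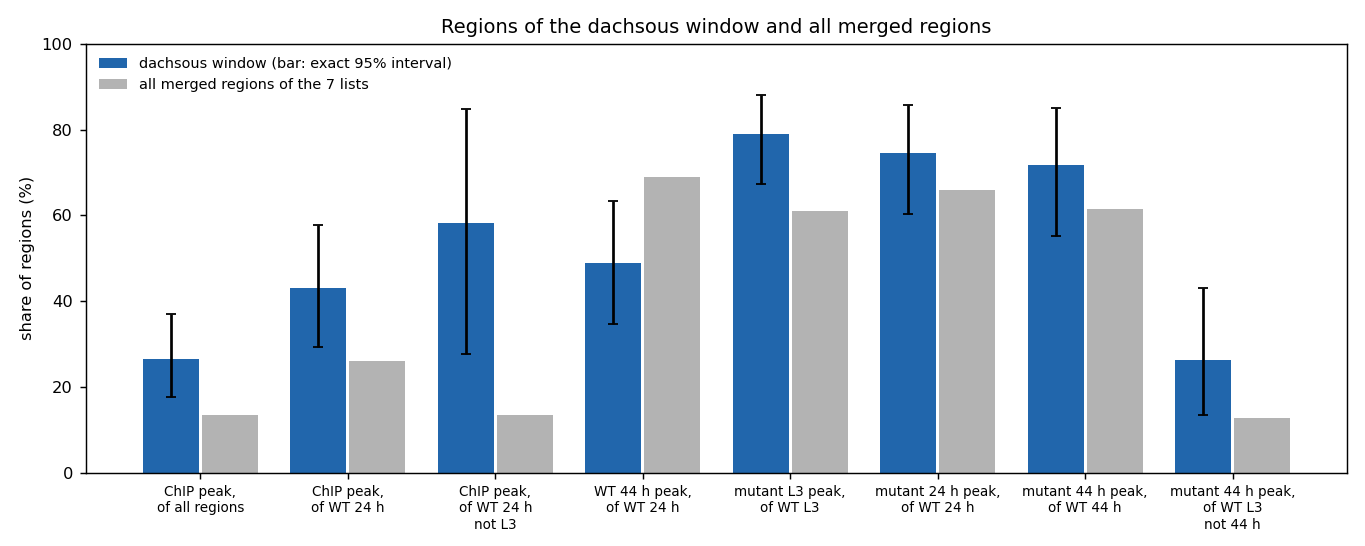
Share of regions with the named peak in the window (blue, with the exact 95% interval for counting error) and among all merged regions (grey), for 8 comparisons. The interval lies above the grey bar for the 3 ChIP-seq shares, the mutant L3 share and the last share, and below it for wild-type 24 h regions with a 44 h peak. The grey bars are not matched for strength within the list.

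The ChIP-seq peaks of regions 76 and 65 were followed by regions 16 (646041 to 646682), 17 (646737 to 647475), 63 (700531 to 701015), 57, 56 (684088 to 684574) and 11 (638378 to 638776), in the top 20.0%, 21.7%, 22.4%, 31.2%, 36.4% and 38.4% of the ChIP-seq list. Region 18 tied with region 11. Ranked by fold enrichment the order differed, with region 63 in the top 15.3%, 57 in 24.3%, 56 in 26.9%, 11 in 28.6%, 16 in 34.9%, 17 in 56.8% and 18 in 73.6%. Neighbouring regions 15 to 18 all had a ChIP-seq peak, and so did regions 72 to 77. Region 17 was in the top 11.0% of the mutant 24 h list and 7.85% of the wild-type 24 h list. Ranked by fold enrichment it was in the top 20.9% and 28.5%. Region 16 was in the top 24.0% in the mutant and 51.6% in wild type at 24 h, and region 11 in the top 25.7% and 54.4%. Region 63 held near-equal places, in the top 20.4% in the mutant and 20.6% in wild type at 24 h, while region 56 was in the top 64.6% and 30.3%.

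Of the 22 regions with both a ChIP-seq and a wild-type 24 h peak, 18 had a mutant 24 h peak (81.8%, interval 59.7% to 94.8%), where 89.9% of all did. The 4 without one were region 54 and the neighbours 72, 73 and 74, in the top 47.1%, 58.5%, 58.5% and 83.5% of the ChIP-seq list. Of the 29 wild-type 24 h regions without a ChIP-seq peak, 20 had a mutant peak (69.0%), where 57.4% of all did. Among shared 24 h regions with a ChIP-seq peak, the mutant place was better in 14 of 18 (77.8%, interval 52.4% to 93.6%), where 48.1% of all such regions were, with a median difference of -13.4 percentage points. Among those without one it was better in 15 of 20 (interval 50.9% to 91.3%), where 50.2% of all were, with a median difference of -13.1 points. Over all such regions the median differences were 0.360 and -0.0999 points. At 24 h the ChIP-seq regions of the window had a median top percent of 50.5 in wild type (22 regions) and 22.7 in the mutant (18 regions). Over all ChIP-seq regions the medians were 21.0 and 20.0. Regions without a ChIP-seq peak had 69.2 and 53.4 (29 regions in each genotype, 20 of them shared), against 58.4 and 58.4 over all. These medians take every region called in each list, so unlike the differences above they do not compare the same regions. The part of these wild-type places in the shares was not tested.

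Summit positions were compared in the same way. The ChIP-seq summit lay a median of 86.5 bp from the mutant 24 h summit over 18 regions, with 12 within 100 bp, and 55.5 bp from the wild-type 24 h summit over 22 regions, with 16 within 100 bp. These sets differ, since regions 54, 72, 73 and 74 had no mutant 24 h peak. In each of them the wild-type 24 h summit lay within 100 bp of the ChIP-seq summit. In region 65 the ChIP-seq summit lay at 702248. The summits of the mutant lay in stage order at 701876, 701871 and 701898, and those of wild type at 702290, 702299 and 701883. The mutant summits were thus 350 to 377 bp from the ChIP-seq summit, against 42 bp at L3, 51 bp at 24 h and 365 bp at 44 h in wild type. The mutant peaks with these summits ran from 701754 to 702515, 701633 to 702508 and 701676 to 702501, so each still covered the ChIP-seq summit. In region 76 the ChIP-seq summit at 715740 lay 20 bp from the mutant L3 summit, and the other FAIRE-seq summits of that region lay 659 to 694 bp from it.

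Other genes of the pathway were counted from a list of 16, of which 4 lie on 2L and could be placed. Over the span of ds the mutant lists had 5.20, 4.40 and 3.60 peaks per 10 kb at L3, 24 h and 44 h, the wild-type lists 7.47, 5.47 and 4.13, and the ChIP-seq list 2.67. Over ft, which encodes the Fat cadherin that binds Dachsous, they were 2.56, 3.42 and 1.28 in the mutant, 4.27, 1.28 and 2.56 in wild type and 0.855 in ChIP-seq. Over d, which encodes the atypical myosin Dachs downstream of Fat, they were 5.49, 6.41 and 4.58 in the mutant, 11.4, 7.78 and 3.20 in wild type and 2.75 in ChIP-seq. Over ex, which encodes the Hippo pathway regulator Expanded, they were 8.01, 6.87 and 6.87 in the mutant, 9.16, 6.87 and 7.44 in wild type and 4.01 in ChIP-seq. In peaks per length ds was thus between ft and ex in all 7 lists. The short gene lft, which encodes the Fat and Dachsous binding protein Lowfat, had 1 peak in each mutant list, 1, 1 and 2 in the wild-type lists and none in ChIP-seq. The strongest ChIP-seq peak overlapping the span of ds placed 67 of 8477, since the main one of region 76 lay just past the end, against 11 for ex, 1478 for d and 3448 for ft.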

How the data were processed

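The authors deposited 1 peak list per condition, called on pooled replicates, and the reads of 1 genomic DNA control. Pileup is the deposited coverage at a summit. The fold enrichment over local background, the −log10 p and the −log10 q of each peak are also the authors' values, and the q values are listed as a score. The submitters' processing notes name dm3, Bowtie2 2.2.8, Picard 2.2.4, bedtools 2.25.0 and MACS2, while settings are not given in the sources used here. RNA-seq samples were not analysed here.

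Peaks were merged by overlap of at least 1 bp, over the genome as background. Depth was estimated by dividing each list's background level by its pileup step, for reads extended to the shortest peak (125 bp) and a genome of 120 Mb. The window held 7147 of 10135847 control reads, counted by midpoint. Gene names came from a Release 6 table without strand, so the end of ds covered by a region stood in for its start. Motifs were not searched.

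Members and lists were chosen with earlier results of these data known. By rule, the regions described were the best of each list, the 3 with the best lowest place over the wild-type stages, the best of each single wild-type stage, the 2 best of each stage in 1 genotype only, the 8 best by ChIP-seq and the one at the end of ds. The scripts were checked on simulated lists. Software was Python 3.11.15 with numpy 2.4.6, pandas 2.3.3, scipy 1.17.1 and matplotlib 3.10.9.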

Additional observations from a re-analysis of the deposited data

How the results depend on the processing

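No paired analysis was possible because the lists pool their replicates, which also kept any replicate from being left out. Of 119 values under the alternatives, 86 stayed within 1.5 times the value reported (or, for the share below, within its interval) and 33 did not. For the shared 24 h regions, the share that ranked better in the mutant was between 71.1% and 78.4% under 8 alternatives, which were chosen for it after seeing the data. Of 178 ranks of the regions described, 25 moved by over 1.5 times when ranked by −log10 p or fold enrichment. Shares on arm 2L differed from those of the whole series by at most 4.04 percentage points.

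Among peaks past a −log10 q of 10, the window held 33 and 18 mutant peaks at L3 and 44 h, 36, 32 and 26 wild-type peaks and 7 ChIP-seq peaks. Regions at all 3 wild-type stages numbered 11, with a wild-type and no mutant L3 peak 7, with a mutant and no wild-type peak 5 at L3 and 2 at 44 h, with a ChIP-seq peak 7, with ChIP-seq and both 24 h peaks 6, with ChIP-seq and wild-type 24 h but no L3 peak 3, and larval regions with a mutant 44 h peak only 2. Fewer peaks account for lower numbers by construction.

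At equal list sizes (22786 peaks), regions with a wild-type and no mutant peak numbered 7 at each stage, and those with a mutant and no wild-type L3 peak 5.

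Requiring 50% of both peaks, the L3 stage alone held 32 wild-type regions, 24 h alone 14 and 44 h alone 10, with 23 in wild type and not mutant and 7 in mutant and not wild type at L3, and 6 larval regions with a mutant 44 h peak. For summits at most 250 bp apart, 7 had a mutant and no wild-type L3 peak.

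With gaps of up to 250 bp bridged, wild-type L3 only regions numbered 12. Regions in wild type and not mutant numbered 9 at L3 and 7 at 44 h, and in mutant and not wild type 1 at L3, 4 at 24 h and 5 at 44 h. ChIP-seq regions open at 24 h and not L3 numbered 3, and larval regions with a mutant 44 h peak 5. The cause of moves under these matching rules is the change in what counts as 1 region.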
